A study of Mus musculus with 40 samples.

Results

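Livers of mice without Nampt in hepatocytes (HNKO) and of WT mice were compared by RNA sequencing after 3 days on a purified control diet (PD), the earliest day of a feeding time course. The comparison took the libraries whose labels begin with the genotype and day 3, which gave 5 HNKO and 5 WT libraries, or 10 of the 40 libraries of the series. The mice were female and of the C57BL/6JBomTac background. HNKO mice carry floxed Nampt alleles and Cre driven by the albumin promoter, and WT mice were floxed littermates without Cre, so that both groups share the floxed allele. Cre acts in hepatocytes, whereas the RNA came from whole liver, and other liver cells keep Nampt. The labels give the days as the age of the mice, while the study's methods give them as days on the diet of adult mice, and days on the diet are used here. The libraries carry the numbers 2, 3, 4, 22, and 23 for HNKO and 1, 5, 24, 25, and 26 for WT, each from 1 mouse, and these numbers name them throughout.

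NAMPT is the rate-limiting enzyme of the salvage pathway, which returns nicotinamide to the NAD pool. Hepatocytes can also make NAD de novo from tryptophan and from nicotinic acid. NAD and NADH carry electrons between fuel oxidation and the respiratory chain, and sirtuins, PARPs, and CD38 consume NAD. Bile duct cells, stellate cells, and Kupffer cells surround the hepatocytes, and injured liver can form a ductular reaction of cells that express bile duct genes.

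The counts analysed are fragments per gene from paired-end sequencing of RNA after removal of rRNA. Counts on genes ranged from 18938629 to 33259898 per HNKO library and from 17638065 to 32364063 per WT library. Expression is given as log2 CPM, the log2 of the counts of a gene relative to the library size, to which a prior count of 2 was added, so that a gene with 0 counts lies at -3.80. The share of counts on mitochondrial genes was 4.60 to 5.79% in HNKO and 4.87 to 5.69% in WT (exact permutation test, two-sided, p = 0.825). The tissue label was checked with 19 hepatocyte markers, all of which were detected, and their summed level was 97010 to 164900 CPM in HNKO and 153000 to 171100 CPM in WT livers. Some libraries stood apart. WT 26 held B cell and fat transcripts, with Ighm, an immunoglobulin heavy chain, at 7.29 log2 CPM against 2.73 to 3.48 in the other WT libraries, and HNKO 23 held pancreatic transcripts, with Cpa1, a pancreatic carboxypeptidase, at 1.72 log2 CPM. The counts of called list members below are therefore also given with HNKO 23 and WT 26 left out together, an alternative chosen after seeing the data.

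Nampt lies on chromosome 12 of GRCm38 (chr12:32819545-32853349, plus strand). Its level was 5.31, 5.38, 5.21, 5.14, and 5.35 log2 CPM in HNKO 2, 3, 4, 22, and 23, and 6.15, 6.57, 6.32, 6.06, and 5.84 log2 CPM in WT 1, 5, 24, 25, and 26. The 5 HNKO libraries, with an SD of 0.10, were all below the lowest WT library, and WT 5 was the highest. HNKO livers held 52.5% of the WT level in the fit (log2 fold change -0.93, SE 0.23, adjusted p = 0.0193, edgeR), and the exact permutation test gave p = 0.00794, the smallest that 5 against 5 libraries allow. Without WT 5 the log2 fold change was -0.82 and Nampt was not called. The source of the remaining Nampt counts in whole-liver RNA was not tested. Gdap10, a gene on the same strand, overlaps the locus (median 363.5 counts, against 1250 for Nampt). Of the 51-base stretches of Nampt transcripts, 0% occur in transcripts of other genes.

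In HNKO livers, 598 genes were higher and 347 lower than in WT among 20297 tested genes (quasi-likelihood test of edgeR, p-value adjusted after Benjamini and Hochberg under 0.05), which is 4.66% of the tested genes, 2.95% higher and 1.71% lower. At an unadjusted p-value under 0.05, 4235 genes passed. The higher genes changed more, with a median size of 1.15 on the log2 scale against 0.57 for the lower genes, and 337 higher and 66 lower genes changed by more than 1. Higher genes had few counts in these livers, with a median of 1.79 log2 CPM, whereas lower genes had a median of 5.60 log2 CPM, both without scaling by gene length. The HNKO libraries did not overlap the WT libraries for 290 of the higher and 180 of the lower genes. Over all tested genes such a separation was seen for 4.11%, 2.31% higher and 1.8% lower. Of the 945 called genes, 850 were protein coding, as were 14568 of the 20297 tested genes. The p-values rest on the spread between the mice of all days, since the fit held 38 libraries, and with the 10 libraries of day 3 alone 420 genes were called.

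**Figure D1:**
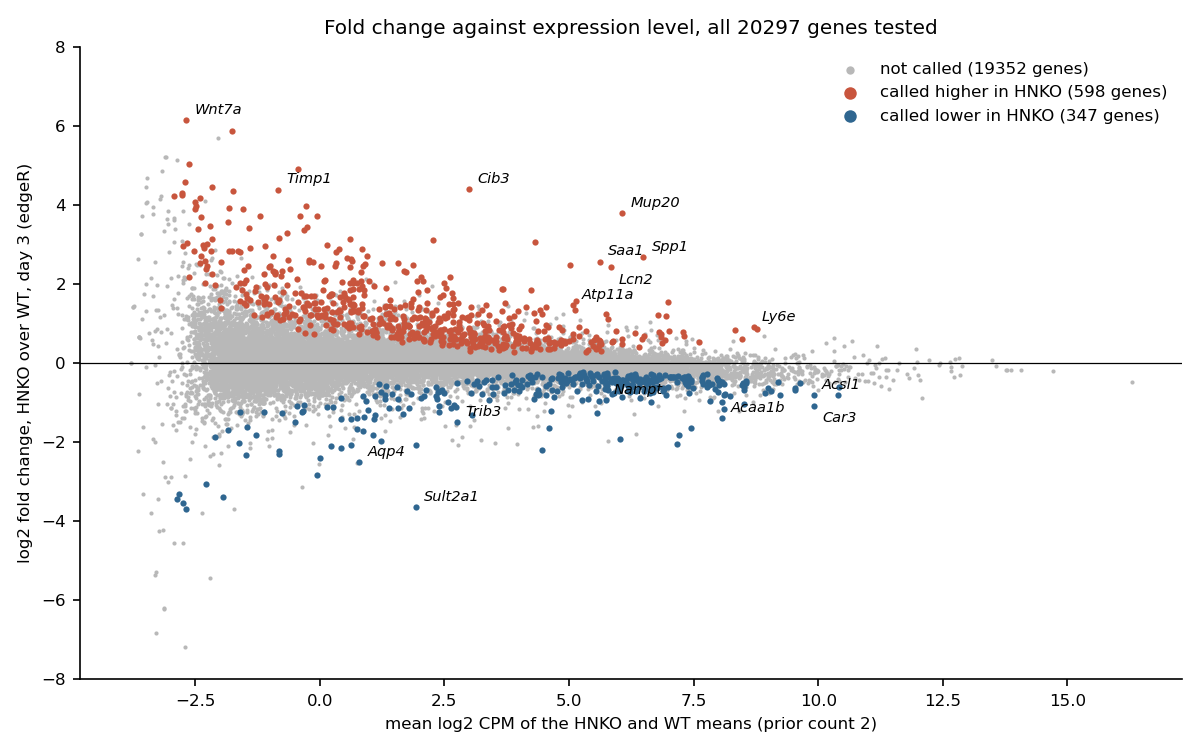
Log2 fold change between HNKO and WT livers at day 3 (vertical axis) against mean log2 CPM (horizontal axis, log2 scale) for each of the 20297 tested genes, with the 598 higher and 347 lower genes coloured. The higher genes spread upward at low levels, and the lower genes sit closer to 0 at higher levels.

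The HNKO livers were not alike in the size of the change. Over the 598 higher genes, the median difference from the WT mean was 1.42 log2 in HNKO 2, 1.05 in HNKO 3, 0.63 in HNKO 4, 0.49 in HNKO 22, and 1.46 in HNKO 23. Over the 347 lower genes, it was -0.63, -0.68, -0.43, -0.39, and -0.65 in the same order. Libraries 4 and 22 thus lay closer to WT in both directions, whereas single WT libraries lay at -0.08 to 0.11 for the higher genes. The SD of the higher genes had a median of 0.51 among HNKO and 0.31 among WT libraries, compared with 0.29 and 0.28 over all tested genes. These genes were called on the same 10 libraries, so that agreement between parts of these libraries follows largely from the calling. Libraries 1 to 21 and libraries 22 to 41 had the same direction for 598 of 598 higher and 346 of 347 lower genes. This agreement is no separate test. The count of called genes moved with single libraries, to 331 without HNKO 2, 443 without HNKO 3, 1473 without HNKO 4, 1668 without HNKO 22, 322 without HNKO 23, 520 without WT 5, 535 without WT 24, and 373 without WT 25. In all 10 fits that left out 1 library, 163 higher and 57 lower genes were called. With HNKO 23 and WT 26 left out together, 242 genes were called, 223 of them among the 945.

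The gene with the smallest p-value was Atp11a, which encodes a flippase that moves phospholipids to the inner leaflet of the plasma membrane. Atp11a was at 5.59, 6.02, 5.92, 6.01, and 5.54 log2 CPM in HNKO 2, 3, 4, 22, and 23, and at 4.38, 4.12, 4.42, 4.43, and 4.47 log2 CPM in WT 1, 5, 24, 25, and 26. Every HNKO library exceeded the highest WT library by more than 1 log2 unit, and libraries 4 and 22 were as high as the rest. The level rose 2.76-fold (log2 fold change 1.47, SE 0.17, adjusted p = 6.59e-06, edgeR).

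Next in order came Cdh6, a cadherin of kidney and fetal epithelia, and Scube3, a secreted EGF-domain protein. Cdh6 was at 2.80, 2.08, 2.09, 1.36, and 2.89 log2 CPM in HNKO 2, 3, 4, 22, and 23 against -0.35, 0.48, -0.87, -0.74, and -1.21 in WT 1, 5, 24, 25, and 26. For Scube3 the HNKO values were 2.16, 1.58, 1.63, 0.61, and 2.45 log2 CPM, and the WT values -1.46, -0.59, -0.35, -1.02, and -1.21. The lowest HNKO library of both genes was HNKO 22, and it still lay above all WT libraries. Cdh6 rose 7.34-fold (SE 0.35 on the log2 scale, adjusted p = 9.25e-06, edgeR) and Scube3 7.37-fold (SE 0.36, adjusted p = 1.27e-05, edgeR).

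Spp1 encodes osteopontin, a secreted matrix protein of bile duct cells and activated macrophages. Its HNKO values were 8.57, 8.11, 6.78, 6.66, and 8.49 log2 CPM, while the WT libraries stayed between 5.22 and 5.30 log2 CPM. HNKO 4 and 22 were nearer to WT than the other HNKO livers, with a gap of over 1 log2 unit to the highest WT library. Spp1 rose 6.39-fold (log2 fold change 2.68, SE 0.36, adjusted p = 5.28e-05, edgeR), and 11.5% of the 51-base stretches of its transcripts also occur in transcripts of other genes.

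**Figure D2:**
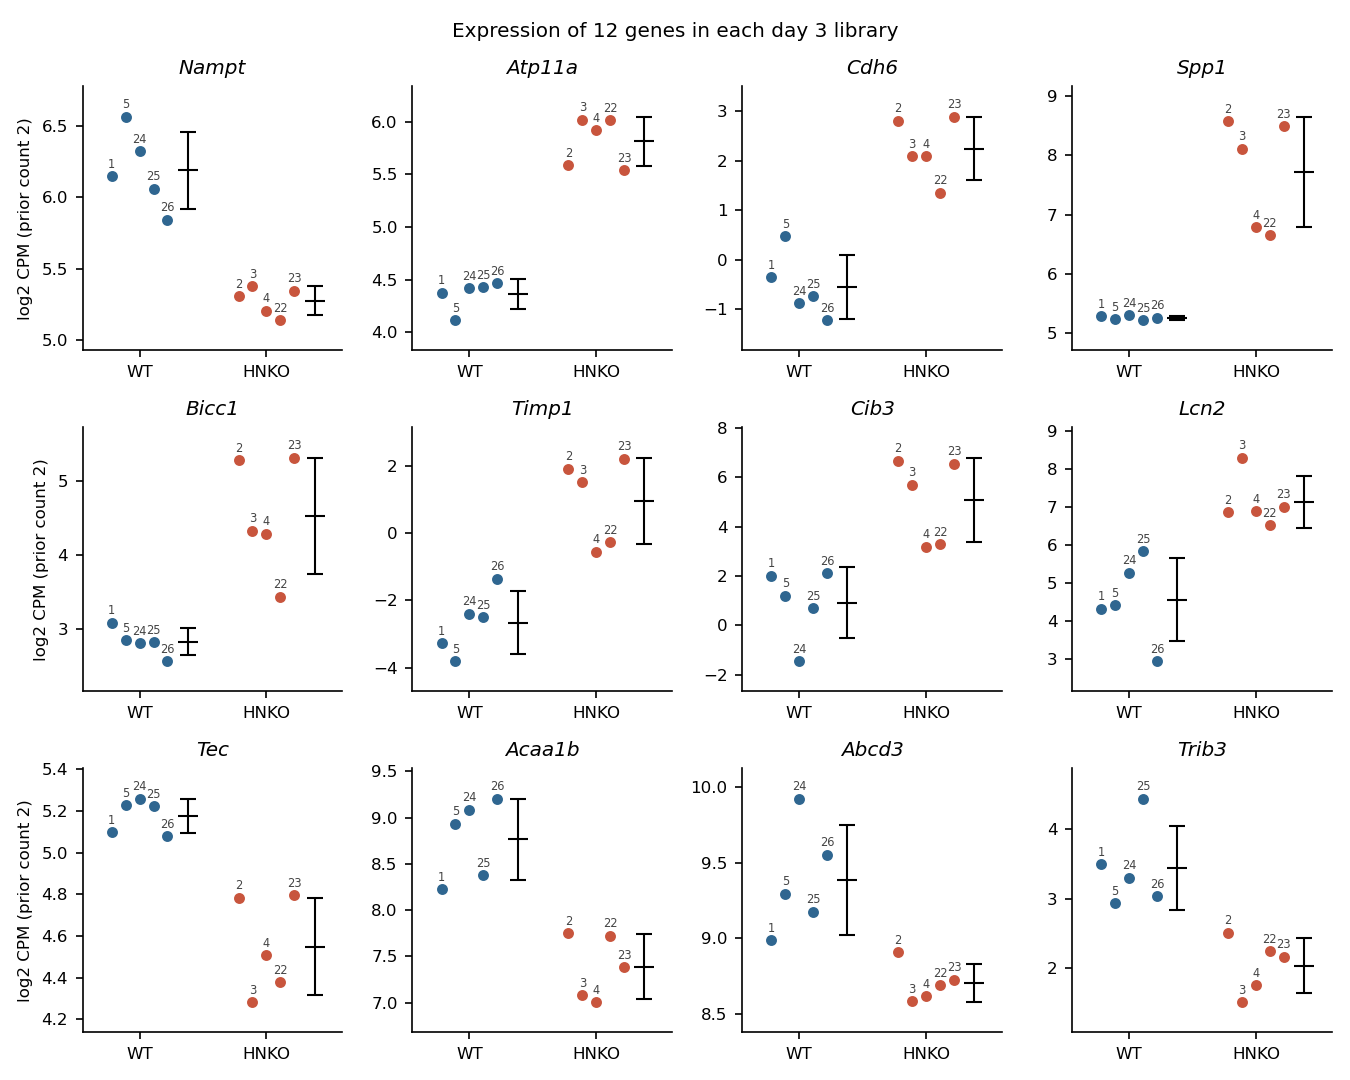
Log2 CPM per library (vertical axis) of Nampt and other named genes in the 5 HNKO and 5 WT livers of day 3, with the mean and SD beside the points. Nampt lies lower in all 5 HNKO libraries, and Atp11a, Cdh6, and Spp1 lie higher in all of them.

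Other higher genes with small p-values included receptors, channels, and enzymes. Ddr1, a receptor tyrosine kinase that binds collagen, was at 1.81 to 3.65 log2 CPM in HNKO and 0.33 to 0.94 in WT. Cftr, the chloride channel of bile duct cells, was at 0.14 to 1.49 log2 CPM in HNKO and -2.26 to -0.87 in WT, and Bicc1, an RNA-binding protein needed for normal tubules, was at 3.44 to 5.32 against 2.56 to 3.08. The log2 fold changes were 2.29 (SE 0.38) for Ddr1, 2.57 (SE 0.40) for Cftr, and 1.87 (SE 0.29) for Bicc1. Foxj1, the transcription factor of motile cilia, rose by 2.57 (SE 0.42, adjusted p = 0.000972, edgeR), and Cxcl14, a chemokine, by 2.53 (SE 0.42, adjusted p = 0.00101, edgeR). Cpne8, a calcium-dependent phospholipid-binding protein, rose by 1.36 (SE 0.21), and Pak6, a kinase, by 2.62 (SE 0.43). Lrrc9 rose by 2.92 (SE 0.49) from very few counts, with 1 to 7 per WT library and 10 to 43 per HNKO library.

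The lists were chosen with earlier results of these data known, so that their shares are no independent support. Among them, the ductal and oval cell markers held the largest share of called genes. Of 29 tested markers, 18 were higher in HNKO and 0 lower, or 62.1% against 2.95% of all tested genes, and their median log2 fold change was 1.56 against 0.01 over all tested genes. The higher markers include Sox4, a transcription factor of progenitor cells, Cldn6 and Cldn7, tight junction proteins, Krt7, a keratin of bile ducts, and Tnfrsf12a, the receptor for TWEAK. Sox4 was at 2.73, 1.91, 1.76, 0.67, and 2.72 log2 CPM in HNKO 2, 3, 4, 22, and 23 and at 0.27, -0.17, 0.27, 0.17, and 0.60 in WT 1, 5, 24, 25, and 26. No HNKO library fell into the WT range, though HNKO 22, at 0.67, came close to WT 26, at 0.60. Sox4 rose 3.84-fold (log2 fold change 1.94, SE 0.33, adjusted p = 0.00142, edgeR). The adhesion molecules Epcam (1.28) and Ncam1 (2.46) and the transcription factor Sox9 (1.13, all log2 fold changes), named after their values were seen, were also called, whereas the bile duct keratin Krt19, likewise, was not (0.68, adjusted p = 0.600, edgeR). The summed level of the markers was 314 to 735 CPM in HNKO and 214 to 258 CPM in WT livers, with HNKO 22 at 314 and HNKO 4 at 383 CPM. In whole-liver RNA, more cells that express a gene and more RNA of it per cell cannot be told apart. With HNKO 23 and WT 26 left out, 11 markers were called, and with at least 10 counts required in every library, 10.

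The list named claudins and classical cadherins also holds Cdh17, a cadherin outside the classical group, and shares 3 members with the ductal list. Of its 26 tested members, 7 were higher and 0 lower (26.9%, beside 2.95% of all tested genes higher). The median log2 fold change was 0.12, with 16 members above 0 and 10 below. The called members were Cdh6, Cldn4, Cldn6, Cldn7, and Cdh1, with Cdh3 and Cdh17, which were named after their values were seen. Cldn4, a tight junction protein of ducts, was at 1.28, -0.24, -1.18, -1.53, and 0.99 log2 CPM in HNKO 2, 3, 4, 22, and 23 and at -2.87, -3.09, -3.80, -2.23, and -2.72 in WT 1, 5, 24, 25, and 26. HNKO 4 and 22 lay closest to WT, and WT 24 had 0 counts. Its estimate of 3.90 on the log2 scale (adjusted p = 0.00333, edgeR, SE 0.75) rests on 9 to 65 counts per HNKO library and 0 to 4 per WT library. Cdh1, E-cadherin, which periportal hepatocytes and ducts express, rose by 0.76 (SE 0.18, adjusted p = 0.0145, edgeR), and its libraries met at 6.51 log2 CPM in HNKO 22 and WT 1. Without HNKO 2 the log2 fold change of Cdh1 was 0.70 and it was not called. Without HNKO 2, 4 members of the list were called, 3 with HNKO 23 and WT 26 left out, and 1 with at least 10 counts in every library.

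The promoter of Cldn4 is shown because it holds a pair of matches to the AP-1 motif. The stretch is chr5:134946885-134947184 of GRCm38.p6 on the minus strand, from 250 bases before to 50 bases after the start in RefSeq, written 5′ to 3′, with matches to TGANTCA, searched on both strands, in capitals.
Cldn4: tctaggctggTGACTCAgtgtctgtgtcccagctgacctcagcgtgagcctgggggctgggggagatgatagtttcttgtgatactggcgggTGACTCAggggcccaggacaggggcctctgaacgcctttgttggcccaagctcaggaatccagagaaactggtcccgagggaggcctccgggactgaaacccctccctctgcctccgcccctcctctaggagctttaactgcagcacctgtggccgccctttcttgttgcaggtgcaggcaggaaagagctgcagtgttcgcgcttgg
Of all 27025 promoters of this length, 8.97% hold the motif, as do 2 of the 14 called ductal markers with a promoter (14.3%). A match describes the letters and does not show that a factor binds there.

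Genes of the extracellular matrix and of stellate cells, which lay down collagen in the liver, were higher in part. Of 40 tested matrix glycoproteins, processing enzymes, and TGF-beta genes, 12 were higher and 0 lower (30%, median log2 fold change 0.72). Over all tested genes, 2.95% were called higher and 1.71% lower. Of 36 collagen chains 7 were higher and 0 lower (19.4%, median 0.57), of 22 metalloproteinases and their inhibitors 5 and 0 (22.7%, median 0.48), and of 36 laminin chains and integrin subunits 4 and 0 (11.1%, median 0.25). Of 25 stellate cell and myofibroblast markers, 7 were higher and 2 lower (36%, median 0.42). The lower ones were Hhip, an inhibitor of hedgehog signalling (-1.13, SE 0.28), and Ecm1, which was named after its values were seen (-0.54, SE 0.16), and Hhip was not called without HNKO 2. The summed level of the stellate markers was 1612, 1070, 951, 755, and 1876 CPM in HNKO 2, 3, 4, 22, and 23 and 939 to 984 CPM in WT livers, so that HNKO 22 lay below WT and HNKO 2 and 23 well above it.

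Timp1, an inhibitor of matrix metalloproteinases, changed most among these genes. It was at 1.92, 1.52, -0.54, -0.27, and 2.23 log2 CPM in HNKO 2, 3, 4, 22, and 23 and at -3.26, -3.80, -2.39, -2.49, and -1.35 in WT 1, 5, 24, 25, and 26. The HNKO libraries stood clear of the WT range, at 15 to 106 counts against 0 to 8. Timp1 rose by 4.39 on the log2 scale (adjusted p = 0.00109, edgeR, SE 0.73), and Syn1, on the opposite strand, had a median of 20 counts against 11.5 for Timp1.

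The collagen gene Col5a2 was at 5.55, 5.18, 4.11, 4.0, and 5.59 log2 CPM in HNKO 2, 3, 4, 22, and 23 and at 2.99 to 3.98 in WT. HNKO 22 came down to the highest WT library, at 3.98, without reaching it. Col5a2 rose 2.41-fold (log2 fold change 1.27, SE 0.31, adjusted p = 0.0152, edgeR), and Col6a3 by 1.57 (SE 0.39) on the log2 scale, with HNKO 22 inside the WT range. Col4a1 (0.78) and Col4a2 (0.81), the chains of basement membrane collagen, were called with smaller changes. Itgb8, an integrin that activates TGF-beta, rose by 1.16 (SE 0.26). Among the signalling genes, Tgfb2 rose by 1.71 (SE 0.38) and its receptor Tgfbr1 by 0.52 (SE 0.11). The proteoglycans Vcan (2.46, SE 0.55) and Lum (1.42, SE 0.34) were higher as well, and Lum was not called without HNKO 23. The collagen calls rested on single libraries, with 0 called without HNKO 2, without HNKO 23, or without WT 5, 3 without HNKO 3 or WT 25, and 4 without WT 24. The matrix glycoprotein list held 6 calls without HNKO 2, 4 without HNKO 23, 7 without WT 5 or WT 25, and 22 without HNKO 22. Stellate markers called higher numbered 2 without HNKO 2, WT 24, or WT 25, 1 without HNKO 23, 3 without WT 5, 4 without WT 1 or WT 26, and 12 without HNKO 22. The proteinase list held 2 calls without HNKO 2, HNKO 23, or WT 25 and 3 without WT 1, WT 5, or WT 24, and the laminin and integrin list 2 without HNKO 2, HNKO 23, WT 5, or WT 25 and 7 without HNKO 22. When HNKO 23 and WT 26 were both left out, 0 collagens, 1 stellate marker, 1 laminin or integrin gene, 2 proteinase genes, and 2 matrix glycoprotein genes were called higher.

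Macrophage genes moved in both directions. Of 24 tested macrophage and Kupffer cell markers, 5 were higher and 1 was lower (25%, beside 4.66% of all tested genes called). Their median log2 fold change was 0.27. The higher ones were Cx3cr1 and Ccr2, chemokine receptors of monocytes and macrophages, Gpnmb and Trem2, which lipid-laden macrophages express, and Cd14, the co-receptor for endotoxin. Cx3cr1 was at 3.61, 2.64, 2.19, 1.41, and 3.79 log2 CPM in HNKO 2, 3, 4, 22, and 23 and at 0.02, 0.04, 0.69, -0.12, and 1.35 in WT 1, 5, 24, 25, and 26. The groups nearly met at HNKO 22 and WT 26. Cx3cr1 rose 5.81-fold (log2 fold change 2.54, SE 0.48, adjusted p = 0.00318, edgeR), Gpnmb by 3.71 (SE 0.75), Trem2 by 2.02 (SE 0.44), Cd14 by 2.17 (SE 0.50), and Ccr2 by 1.77 (SE 0.45) on the log2 scale. Cd163, a haemoglobin scavenger receptor of Kupffer cells, was lower (-0.85, SE 0.21, adjusted p = 0.0194, edgeR), at 3.77 to 4.65 log2 CPM in HNKO and 4.80 to 5.33 in WT, and lost its call without HNKO 2 or HNKO 23. The summed level of the markers was 926 to 1273 CPM in HNKO and 843 to 1129 CPM in WT. Without HNKO 23, 3 markers were called higher, and without HNKO 23 and WT 26 together, 2.

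Of 42 chemokines and their receptors 5 were higher and 1 lower (14.3%, beside 4.66% of all tested genes called, median 0.28). They include Cx3cl1 (1.44, SE 0.34), the ligand of Cx3cr1, and Ccl2 (2.62, SE 0.63), the ligand of Ccr2, so that the ligand and the receptor of both pairs were called. Ccl2 was at 2.91, 2.62, 0.47, 0.29, and 2.83 log2 CPM in HNKO 2, 3, 4, 22, and 23 and at -2.39 to 0.48 in WT. HNKO 4 and 22 lay within the WT range. Without HNKO 2, and likewise without HNKO 23 and WT 26 together, 2 genes of this list were called higher, and without HNKO 22, 8. Of 27 acute phase genes 3 were higher and 0 lower (11.1%, beside 2.95% of all tested genes higher, median 0.15). These were the serum amyloid genes Saa1 and Saa2 and the iron-scavenging lipocalin Lcn2. Saa1 was at 6.03, 8.39, 6.19, 6.96, and 6.25 log2 CPM in HNKO 2, 3, 4, 22, and 23 and at 4.09 to 4.82 in WT. HNKO 3 was the highest library for Saa1, Saa2, and Lcn2, while the lowest HNKO library was HNKO 2 for Saa1, HNKO 4 for Saa2, and HNKO 22 for Lcn2. The log2 fold changes were 2.57 (SE 0.53) for Saa1, 2.48 (SE 0.53) for Saa2, and 2.42 (SE 0.56) for Lcn2. Without HNKO 23 and WT 26 together, 2 acute phase genes were called. Saa1 and Saa2 share 30.9% and 29.5% of their 51-base stretches with other transcripts. The lymphocyte and neutrophil markers had 1 call, the B cell gene Ms4a1 (-1.68, SE 0.44), which was at 3.74 log2 CPM in WT 26, 0.31 to 0.81 in the other WT libraries, and 0.08 to 0.61 in HNKO. Without WT 26 the log2 fold change of Ms4a1 was -0.25 and it was not called, nor was it without HNKO 2, HNKO 3, or HNKO 23, or without HNKO 23 and WT 26 together.

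Some genes of the cytoskeleton were called higher. Of 15 tubulins 5 were higher and 0 lower (33.3%, beside 2.95% of all tested genes higher, median 0.62). Of 18 annexins and partner S100 proteins 3 were higher and 0 lower (16.7%, median 0.57). Anxa5, a calcium-dependent phosphatidylserine-binding protein, was at 8.0, 7.65, 6.61, 6.23, and 8.01 log2 CPM in HNKO 2, 3, 4, 22, and 23 and at 6.15 to 6.41 in WT. HNKO 22 lay within the WT range. Anxa5 rose 2.32-fold (log2 fold change 1.21, SE 0.27, adjusted p = 0.00811, edgeR), and Tagln2, an actin-binding protein, by 1.19 (SE 0.25). Tagln2 belongs to a list of 16 tropomyosin and smooth muscle contractile genes. Of these, 3 were higher and 0 lower (18.8%, median 0.30), and 2 to 4 were called higher when 1 library was left out. Without HNKO 2, 0 tubulins and 1 gene of the annexin list were called. Without HNKO 3, HNKO 23, or WT 25, 1 tubulin was called, and without WT 5 or WT 24, 3, while 5 genes of the annexin list were called without WT 26. No gene of the tubulin list or the annexin list was called when HNKO 23 and WT 26 were both left out.

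Of 35 cell cycle genes 2 were called higher and 0 lower (5.71%, beside 2.95% of all tested genes higher and 4.66% in either direction). They were the helicase subunits Mcm5 (1.26, SE 0.35) and Mcm6 (0.93, SE 0.28), although the median of the list was 0.93. Mcm6 was at 4.11, 4.58, 2.57, 3.07, and 4.35 log2 CPM in HNKO 2, 3, 4, 22, and 23 and at 2.89 to 3.30 in WT. HNKO 4 was thus below all WT libraries and HNKO 22 among them. The summed level of the list was 494, 440, 168, 200, and 472 CPM in the same order of HNKO libraries and 165 to 269 CPM in WT. Without HNKO 4, 13 genes were called higher, without HNKO 22, 12, and without HNKO 2, HNKO 3, HNKO 23, WT 1, WT 5, WT 25, or WT 26, 0, and without WT 24, 1. Of the cell cycle list 0, and of the histones below 1, were called when HNKO 23 and WT 26 were both left out. Of 45 replication-dependent histones 5 were higher (11.1%, median 0.81). Many histone genes have near-identical copies, so that their counts are uncertain. Of the histones, 11 were called without HNKO 22, 10 without HNKO 4, and 0 without HNKO 3 or HNKO 23.

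**Figure D3:**
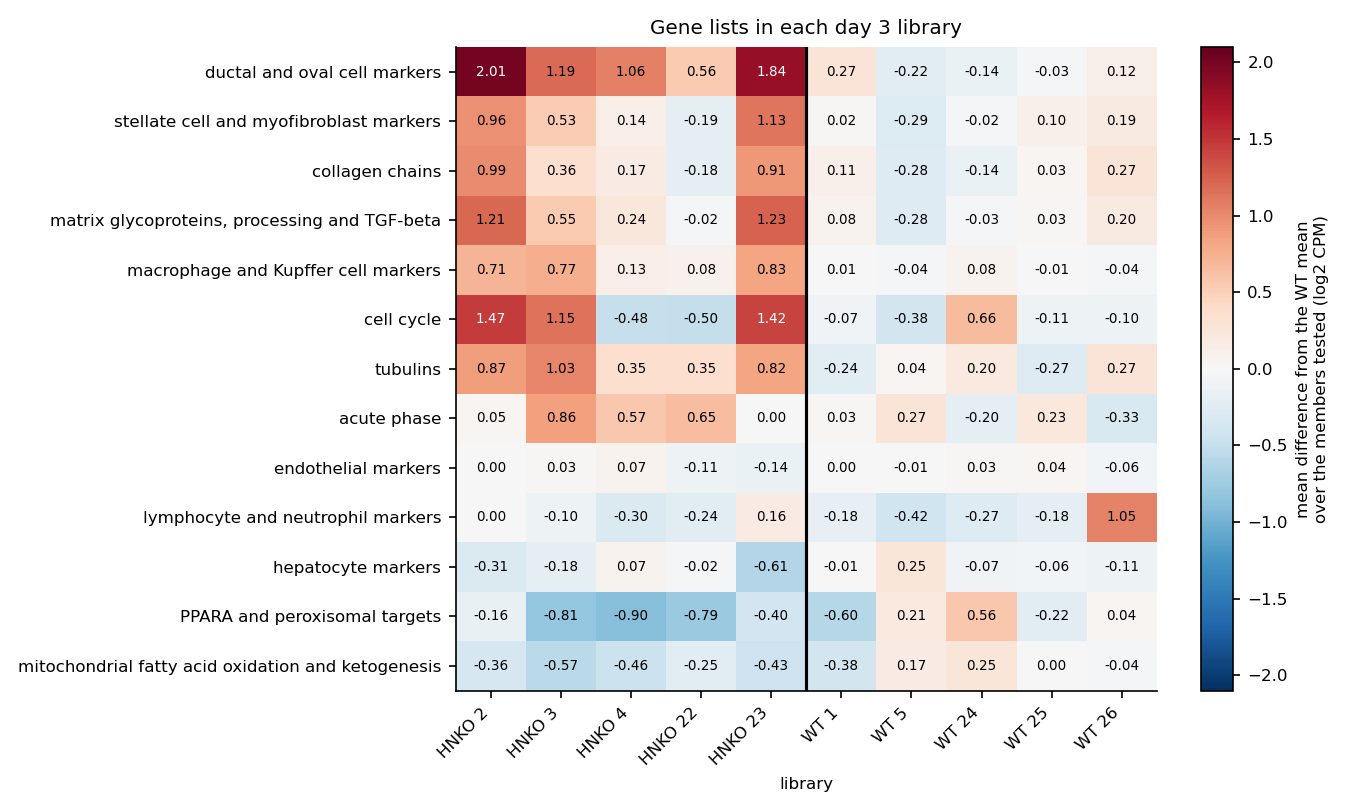
Mean difference from the WT mean (log2, colour) over the tested members of gene lists (rows) in each of the 10 libraries of day 3 (columns). The ductal list is above WT in all 5 HNKO libraries, and the cell cycle list is above WT in HNKO 2, 3, and 23 and below it in HNKO 4 and 22.

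The largest log2 fold changes without overlap were those of genes with few counts. Wnt7a, a secreted Wnt ligand, had 41 counts over the 5 HNKO libraries and 0 over the 5 WT libraries, which is at least 12.8-fold higher when the WT group is set at 3 counts. Shc2, an adaptor of receptor tyrosine kinases, was at 3.17, 2.02, -0.83, -0.12, and 3.12 log2 CPM in HNKO 2, 3, 4, 22, and 23 and at -3.80 to -1.44 in WT. Shc2 rose by 4.91 on the log2 scale (adjusted p = 0.00374, edgeR, SE 0.96). Cib3, a calcium- and integrin-binding protein, had more counts and was at 6.68, 5.70, 3.20, 3.31, and 6.55 log2 CPM in HNKO 2, 3, 4, 22, and 23 and at 2.01, 1.20, -1.44, 0.70, and 2.11 in WT 1, 5, 24, 25, and 26. All HNKO libraries were above the WT range, and WT 24 was the lowest of a wide WT range. Cib3 rose by 4.39 on the log2 scale (adjusted p = 0.00142, edgeR, SE 0.76).

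Of the higher genes with the highest log2 CPM, Ly6e, a membrane protein of many cell types, was at 9.13, 9.35, 9.37, 8.80, and 9.15 log2 CPM in HNKO 2, 3, 4, 22, and 23 and at 8.01 to 8.53 in WT. The HNKO values differed little, and Ly6e rose 1.88-fold (log2 fold change 0.91, SE 0.20, adjusted p = 0.00815, edgeR). Myh9, nonmuscle myosin, rose by 0.61 (SE 0.14), and Sorbs2, an adaptor of the cytoskeleton, by 0.78 (SE 0.16). Kcnq1ot1, an imprinted antisense RNA, rose by 0.54 (SE 0.10, adjusted p = 0.00226, edgeR). The complement gene C6 rose by 1.25 (SE 0.24, adjusted p = 0.00374, edgeR), from 4.95 to 5.29 log2 CPM in WT to 5.29 to 6.94 in HNKO, where HNKO 4 was as low as the highest WT library.

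Genes of fatty acid oxidation were lower in part in HNKO livers. PPARA is the nuclear receptor that drives peroxisomal and mitochondrial fatty acid oxidation in hepatocytes. Of 39 tested PPARA and peroxisomal targets, 16 were lower and 0 higher (41% against 1.71% of all tested genes lower), the median log2 fold change was -0.60 against 0.01 over all tested genes, and 37 of 39 were below 0. Acaa1b, a peroxisomal thiolase, was at 7.75, 7.08, 7.01, 7.72, and 7.38 log2 CPM in HNKO 2, 3, 4, 22, and 23 and at 8.22, 8.93, 9.09, 8.37, and 9.21 in WT 1, 5, 24, 25, and 26. The groups did not overlap, and HNKO 4 and 22 were as low as the other HNKO livers. Acaa1b fell to 38% of the WT level (log2 fold change -1.39, SE 0.22, adjusted p = 0.000603, edgeR), and 30.1% of its 51-base stretches are shared with other transcripts.

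Abcd3, a transporter of the peroxisomal membrane, was at 8.91, 8.59, 8.62, 8.69, and 8.72 log2 CPM in HNKO 2, 3, 4, 22, and 23 and at 8.98, 9.29, 9.93, 9.18, and 9.55 in WT 1, 5, 24, 25, and 26. HNKO 2 came close to WT 1 without reaching it. Abcd3 fell to 60.9% of the WT level (log2 fold change -0.72, SE 0.15, adjusted p = 0.00471, edgeR). Acsl1, which activates long-chain fatty acids, was at 9.23 to 9.74 log2 CPM in HNKO and 10.02 to 10.69 in WT and fell to 56.8% of the WT level (log2 fold change -0.82, SE 0.18, adjusted p = 0.00885, edgeR). Ehhadh, the bifunctional enzyme of peroxisomal beta-oxidation, was lower by -0.84 (SE 0.19) and Vnn1, a pantetheinase, by -1.27 (SE 0.29), and for both HNKO 2 lay in the WT range. Ppara itself (-0.64), the omega-hydroxylases Cyp4a10 (-1.65) and Cyp4a14 (-2.04), and the thioesterase Acot3 (-2.21), named after their values were seen, were also called. WT 1 was the lowest WT library of the list, at a mean of -0.60 log2 below the WT mean, where the HNKO libraries ranged from -0.90 to -0.16. Without HNKO 2, HNKO 23, HNKO 3, WT 24, or WT 5 the number of members called was 10, 7, 6, 6, and 8, and with HNKO 23 and WT 26 left out 6. Without HNKO 4 or WT 25 it was 11.

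In mitochondria, 5 of 22 genes of fatty acid oxidation and ketogenesis were lower and 0 higher (22.7%, median -0.39), and 22 of 22 had negative log2 fold changes. They were Eci1, an isomerase for unsaturated fatty acids (-0.58), Etfdh, which passes electrons from beta-oxidation to ubiquinone (-0.45), the acylcarnitine carrier Slc25a20 (-0.60), and the dehydrogenases Acads (-0.39) and Hadh (-0.38). Of the 37 nuclear genes of respiratory complex I, which oxidises NADH, 4 were lower and 36 were below 0 (10.8%, median -0.31). Of 47 nuclear genes of complexes II to V, 2 were lower and 45 were below 0 (4.26%, median -0.33). Over all tested genes, 1.71% were called lower and 4.66% in either direction. Of 8 tested mRNAs of the mitochondrial genome 0 were called (median -0.09), and of 77 mitochondrial ribosomal proteins 0. No gene of fatty acid oxidation and none of complex I was called when HNKO 23 and WT 26 were both left out, and the same held for both lists without HNKO 3, HNKO 23, WT 5, or WT 24, and for complex I also without HNKO 2 or WT 25. Without HNKO 2 or WT 25, 2 genes of fatty acid oxidation were called. Without HNKO 22 or WT 1, the lists held more calls, with 10 and 9 for fatty acid oxidation, 9 and 8 for complex I, and 15 and 10 for complexes II to V. The list of complexes II to V held 7 calls without HNKO 4 and 0 without HNKO 2, HNKO 3, HNKO 23, WT 5, WT 24, or WT 25, and likewise 0 without HNKO 23 and WT 26 together.

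A minority of the enzymes of drug and steroid metabolism were called lower. Of 50 cytochrome P450 genes of families 1 to 3, 5 were lower and 1 higher (12%, median -0.57, 44 below 0). Over all tested genes, 1.71% were called lower and 2.95% higher. Of 61 glutathione transferases, UGTs, and sulfotransferases 8 were lower and 0 higher (13.1%, median -0.45), and of 14 carboxylesterases 3 and 0 (21.4%, median -0.49). Ces1d, a carboxylesterase of the endoplasmic reticulum, was at 7.82, 7.63, 8.45, 8.34, and 7.65 log2 CPM in HNKO 2, 3, 4, 22, and 23 and at 8.78, 9.21, 8.98, 9.11, and 9.14 in WT 1, 5, 24, 25, and 26. HNKO 4 and 22 were nearest to WT but below it. Ces1d was lower by -1.03 (SE 0.21, adjusted p = 0.00454, edgeR). Gsta3, a glutathione transferase, was lower by -0.50 (SE 0.14), and Cyp2c40 by -1.16 (SE 0.34), with 59.7% of its 51-base stretches shared with other transcripts. The call of Cyp2c40 was lost in 7 of 10 fits that left out 1 library. Without HNKO 2, HNKO 3, HNKO 23, WT 5, or WT 25, 0 P450 genes were called lower, and without WT 24, 2. Of the transferases, 1 was called without HNKO 2, HNKO 23, or WT 25 and 2 without HNKO 3, WT 5, or WT 24, and 1 carboxylesterase was called without HNKO 2, HNKO 3, HNKO 23, or WT 5. Without HNKO 4 these lists held 13, 17, and 5 calls and without HNKO 22, 8, 13, and 4, whereas 1 gene of each was called without HNKO 23 and WT 26 together.

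Of 24 genes that respond to growth hormone, 4 were lower and 1 higher (20.8%, beside 4.66% of all tested genes called, median -0.55). The single libraries spread widely. The higher gene was Mup20, a major urinary protein, at 9.14, 8.91, 4.26, 6.19, and 9.14 log2 CPM in HNKO 2, 3, 4, 22, and 23 and at 4.15 to 4.95 in WT. HNKO 4 lay within the WT range, and the rise of 3.79 on the log2 scale (adjusted p = 0.00311, edgeR, SE 0.71) came with an SD of 2.21 among HNKO and 0.29 among WT libraries. Mup20 shares 50.1% of its 51-base stretches with other transcripts. Sult2a1, a sulfotransferase of steroids and bile acids, was at -1.20, 2.01, 2.59, -1.98, and -1.59 log2 CPM in HNKO and at 1.67, 4.24, 6.01, 5.37, and 2.11 in WT, and its difference was -3.65 on the log2 scale (adjusted p = 0.0376, edgeR, SE 1.05). The groups overlapped, and the call was lost in 7 of 10 fits that left out 1 library. Without HNKO 2, HNKO 3, HNKO 23, WT 5, or WT 25, 0 genes of the growth hormone list were called lower, 1 without WT 24, 2 without HNKO 22, and 7 without HNKO 4, and without HNKO 23 and WT 26 together 1 was called lower and 1 higher. Among bile acid genes, 3 of 25 were lower and 1 higher (16%, median -0.35). Slc10a2, the apical sodium-dependent bile acid transporter of bile duct cells and ileum, rose 3.68-fold (log2 fold change 1.88, SE 0.41, adjusted p = 0.00815, edgeR), with WT 26, at 4.15 log2 CPM, above HNKO 22, at 3.82. Akr1d1, a reductase of bile acid synthesis (-0.74), Slco1b2, a sinusoidal organic anion transporter (-0.80), and Cyp2c70, which makes muricholic acids (-0.64), were lower, and the number called lower was 0 without HNKO 2, HNKO 3, HNKO 23, or WT 25, 1 without WT 5 or WT 24, 6 without HNKO 4, and 8 without HNKO 22. Without HNKO 23 and WT 26 together, 0 bile acid genes were called lower and 1 higher.

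Other lower genes also stood out by their p-values, and Tec, a cytoplasmic tyrosine kinase, was at 4.78, 4.28, 4.51, 4.38, and 4.79 log2 CPM in HNKO 2, 3, 4, 22, and 23 and at 5.08 to 5.26 in WT. The groups did not overlap, and HNKO 23 and HNKO 2 came nearest to WT. Tec fell to 65.2% of the WT level (log2 fold change -0.62, SE 0.09, adjusted p = 0.000445, edgeR). Fzd5, a Wnt receptor, was lower by -0.53 (SE 0.11), Ube2h, an E2 ubiquitin-conjugating enzyme, by -0.51 (SE 0.10), Kank1, an adaptor of focal adhesions, by -0.46 (SE 0.09), and Tymp, a thymidine phosphorylase, by -0.66 (SE 0.13). Tymp overlaps Ncaph2 on the opposite strand (median 1137 counts) and shares 40.6% of its 51-base stretches.

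Larger falls were seen for genes with few counts. Aqp4, a water channel, was at 0.03, -0.10, -0.94, -0.56, and -0.56 log2 CPM in HNKO 2, 3, 4, 22, and 23 and at 1.69, 2.21, 2.16, 2.28, and 1.66 in WT 1, 5, 24, 25, and 26. All HNKO libraries were at least 1 log2 unit below all WT libraries. Aqp4 fell to 17.5% of the WT level (log2 fold change -2.51, SE 0.53, adjusted p = 0.00628, edgeR). Ptprt, a receptor tyrosine phosphatase, was lower by -2.1 (SE 0.42) and Serpinb1a, an inhibitor of neutrophil proteases, by -2.08 (SE 0.43), and neither overlapped. Car3, a carbonic anhydrase of hepatocytes with high log2 CPM, was at 8.72, 9.14, 10.26, 9.70, and 8.79 in HNKO and at 10.26 to 10.76 in WT, and fell to 47.2% of the WT level (log2 fold change -1.08, SE 0.27, adjusted p = 0.0174, edgeR). HNKO 4 nearly reached WT 1. The call of Car3 was lost without HNKO 2, HNKO 3, or HNKO 23.

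Of 26 genes of the integrated stress response, the program that ATF4 drives when translation is slowed, 1 was higher and 1 lower (7.69%, median 0.22), beside 2.95% and 1.71% of all tested genes. Without HNKO 4 or HNKO 22, 4 were called higher, and without HNKO 2, HNKO 3, HNKO 23, WT 1, WT 5, WT 24, or WT 25, 0. Trib3, a pseudokinase that restrains this program, was at 2.51, 1.52, 1.76, 2.25, and 2.17 log2 CPM in HNKO 2, 3, 4, 22, and 23 and at 3.50, 2.94, 3.31, 4.44, and 3.04 in WT 1, 5, 24, 25, and 26. No libraries overlapped, and WT 25 was the highest. Trib3 fell to 35.7% of the WT level (log2 fold change -1.49, SE 0.28, adjusted p = 0.00311, edgeR). Slc7a11, the cystine transporter subunit, was at 0.43, -0.57, -3.80, -1.41, and 1.68 log2 CPM in HNKO and at -3.80 to -1.08 in WT. HNKO 4 had 0 counts and HNKO 22 lay within the WT range. Its estimate of 2.81 on the log2 scale (adjusted p = 0.0453, edgeR, SE 0.83) rests on 0 to 72 counts per HNKO library and lost its call in 7 of 10 fits that left out 1 library. Without HNKO 23 and WT 26 together, Trib3 was called and Slc7a11 was not.

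These 2 promoters are shown because ATF4 binds C/EBP-ATF response elements and both hold a match. The letters TGATGNAA were searched on both strands and matches are in capitals, in windows of GRCm38.p6 from RefSeq that run from 250 bases before to 50 bases after the start, 5′ to 3′. Both genes are on the minus strand, Trib3 at chr2:152344011-152344310 and Slc7a11 at chr3:50443564-50443863.
Trib3: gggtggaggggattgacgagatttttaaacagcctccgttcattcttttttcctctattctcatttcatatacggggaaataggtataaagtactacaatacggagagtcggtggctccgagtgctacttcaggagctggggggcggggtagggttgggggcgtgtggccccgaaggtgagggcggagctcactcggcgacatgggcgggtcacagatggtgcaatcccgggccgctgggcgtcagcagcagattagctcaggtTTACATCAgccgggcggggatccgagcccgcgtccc
Slc7a11: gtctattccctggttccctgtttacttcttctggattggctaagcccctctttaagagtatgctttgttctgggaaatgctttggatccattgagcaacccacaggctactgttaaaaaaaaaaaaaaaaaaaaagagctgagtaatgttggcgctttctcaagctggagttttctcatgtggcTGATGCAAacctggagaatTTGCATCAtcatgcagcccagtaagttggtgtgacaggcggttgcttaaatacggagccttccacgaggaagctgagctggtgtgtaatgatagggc
The match of Trib3 lies within the bases after its start, whereas those of Slc7a11 lie before it. The motif was present in 10 of the 25 promoters of the list (40%) and in 4.51% of all promoters. The pair of genes with matches changed in opposite directions, and a match does not show that a factor acts there.

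Few other genes of NAD metabolism were called, in lists of up to 18 genes, beside a share of 1.71% called lower over all tested genes. Of 17 genes of salvage and nicotinamide handling 2 were lower and 0 higher (11.8%, median log2 fold change -0.17), Nampt and the mitochondrial NAD kinase Nadk2. Nadk2 was at 6.92, 6.96, 7.37, 7.27, and 7.10 log2 CPM in HNKO 2, 3, 4, 22, and 23 and at 7.39 to 7.67 in WT. HNKO 4 lay just below the WT range. The fall of Nadk2 by 0.36 on the log2 scale (adjusted p = 0.0365, edgeR, SE 0.10) lost its call in 6 of 10 fits that left out 1 library. Of 11 genes of the de novo pathway from tryptophan 1 was lower (9.09%, median -0.40), Afmid, the arylformamidase (-0.90, SE 0.25), which overlaps Tk1 on the opposite strand (median 591.5 counts) and lost its call in 5 of 10 such fits. In this pathway, 3 genes were called lower without HNKO 4 and 2 without WT 1. Of 18 NAD consumers 2 were lower (11.1%, median -0.04), Sirt3, the mitochondrial deacetylase (-0.52, SE 0.12, adjusted p = 0.0136, edgeR), and Sirt1, the nuclear one (-0.29, SE 0.09, adjusted p = 0.0429, edgeR). Sirt3 was at 5.58 to 5.91 log2 CPM in HNKO and 6.08 to 6.36 in WT. Sirt3 lost its call without WT 25, and Sirt1 in 8 of 10 fits that left out 1 library. No gene of these 3 lists was called higher. When HNKO 23 and WT 26 were both left out, the 1 gene of salvage and nicotinamide handling called lower was Nampt itself. Of the de novo pathway and of the NAD consumers, 0 were called lower.

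Several programs showed no called member. Of 30 interferon-stimulated genes 0 were called (median -0.03), as of 20 endothelial markers (median -0.01), 25 cholesterol synthesis genes (median 0.15), 27 genes of gluconeogenesis and glycolysis (median -0.07), 28 genes of the urea cycle and amino acid catabolism (median -0.28), 21 genes of the clock (median -0.54), and 83 cytosolic ribosomal proteins (median -0.11). Of the 19 hepatocyte markers 1 was called lower (5.26%, beside 1.71% of all tested genes lower and 4.66% in either direction). It was the transcription factor Cebpa (-0.57, SE 0.15, adjusted p = 0.0282, edgeR). Cebpa was at 7.16 to 7.82 log2 CPM in HNKO and 7.87 to 8.34 in WT. Its call was lost in 5 of 10 fits that left out 1 library and without HNKO 23 and WT 26 together. Without HNKO 4, 3 hepatocyte markers were called. The median of the hepatocyte markers was -0.21, and their summed level was lowest in HNKO 23, at 97010 CPM. Of 15 pericentral markers 0 were called (median -0.40), and of 15 periportal markers 1, Cdh1. Leaving out single libraries gave some of these lists calls. Of the pericentral markers, 3 were lower without HNKO 22 or WT 26 and 1 without HNKO 4. Of the urea cycle and amino acid genes, 3 were lower without HNKO 4, 2 without HNKO 22, and 1 without WT 24. Without HNKO 4, 2 periportal markers were lower as well. The median difference of the cholesterol synthesis genes was 0.66 among libraries numbered 1 to 21 and -0.42 among those numbered 22 to 41, which was not tested. A list without a call is not shown to be unchanged, since the clock and pericentral genes had medians well below 0.

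**Figure D4:**
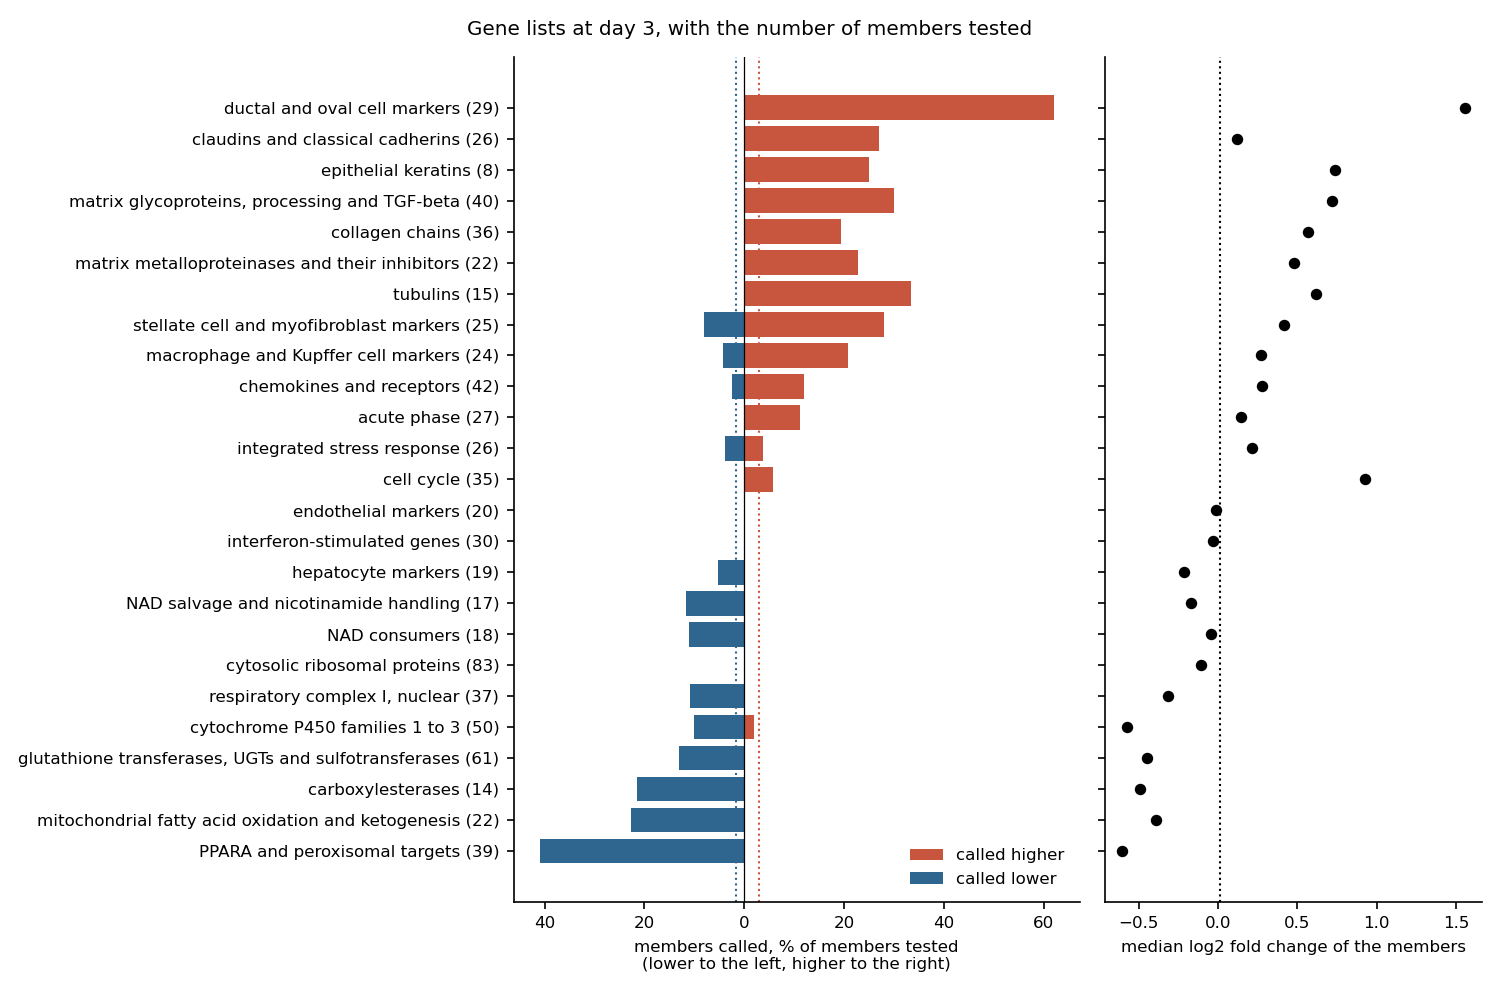
For each gene list, bars give the percentage of tested members called higher (to the right) or lower (to the left) in HNKO livers at day 3, with dotted lines at the shares over all tested genes, and dots give the median log2 fold change, with a dotted line at the median of all tested genes. The ductal markers have the highest median, 1.56, with 18 of 29 called, and the PPARA and peroxisomal targets a median of -0.60, with 16 of 39 called.

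Finally, the effect of genotype at day 3 was set beside that at days 6, 12, and 21, which were measured in other mice. Of the 598 higher genes, 427 were called higher at day 6, 285 at day 12, and 246 at day 21, where only 3 HNKO libraries were used. Of the 347 lower genes the numbers were 169, 106, and 31. At these days 12.8%, 7.82%, and 3.12% of all tested genes were called. At day 3 and at no other day, 127 higher and 139 lower genes were called. The contrast of the day 3 effect with the mean of the 3 later days called 0 genes (edgeR, adjusted p-value under 0.05), with 1232 genes or 6.07% at an unadjusted p-value under 0.05, whereas DESeq2 called 5. No gene is thus shown by edgeR to change differently at day 3.

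Trib3 was lower by -1.49 at day 3 and by -0.17, -0.05, and -0.39 at days 6, 12, and 21, a difference of -1.29 from the mean of the later days (unadjusted p = 0.000337, adjusted p = 0.460, edgeR). Fzd5 was at -0.53 at day 3 against 0.03, 0.23, and -0.24 later (unadjusted p = 0.000126, adjusted p = 0.319, edgeR). The genes with the smallest p-values of this contrast included Nup62, a nucleoporin, with a log2 fold change of 0.44 at day 3 (SE 0.11) that exceeded the later mean by 0.66 (adjusted p = 0.215, edgeR). Nup62 shares its locus with Atf5 (median 3692 counts, against 245 for Nup62). The glycosyltransferase gene B3galt1 was lower by -0.81 at day 3, which is -1.15 below the later mean (adjusted p = 0.233, edgeR), and Sntg2, a syntrophin, by -0.61, which is -0.87 below it (adjusted p = 0.233, edgeR). These differences did not pass the correction in edgeR, whereas DESeq2 called Nup62, B3galt1, and Sntg2. Atp11a, by comparison, was higher by 1.47, 1.80, 1.56, and 1.0 at the 4 days, and Cdh6 by 2.88, 2.85, 2.43, and 1.91.

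**Figure D5:**
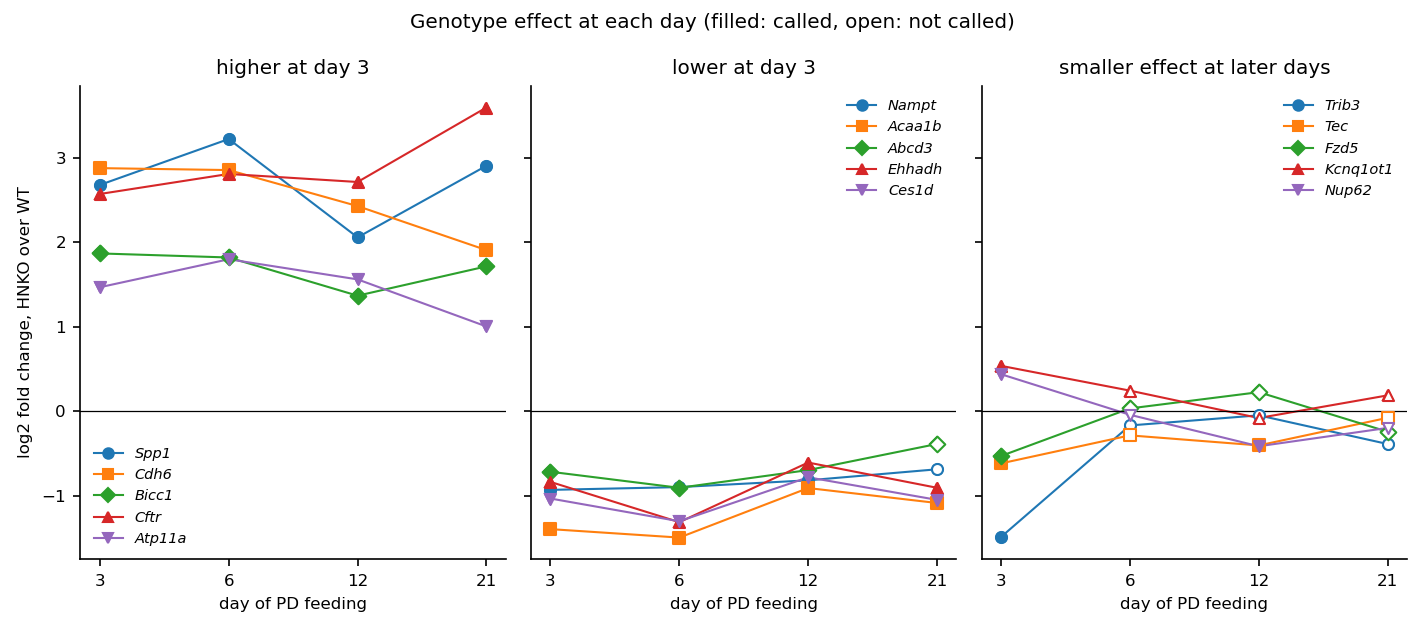
Log2 fold change between HNKO and WT livers at days 3, 6, 12, and 21 (horizontal axis) for 15 named genes in 3 panels, with filled points where the gene was called at that day and open points where it was not. Atp11a and Cdh6 are higher at all 4 days, and Trib3 and Fzd5 lie farthest below 0 at day 3.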

How the data were processed

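The authors sequenced rRNA-depleted liver RNA and deposited 1 table of raw counts, the fragments per gene of each library with no normalization. Per the submitters' processing notes, reads were aligned with STAR (2.7.2b) to GRCm38 and counted with featureCounts (1.6.4), and edgeR (3.26.0) was used, and the study's methods name GENCODE genes and fragments with both ends aligned. The library kit keeps strand, but whether the counting used it is not given in the sources used here. No column of the deposited counts was left without a sample.

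The counts were tested here in R (4.3.3) with edgeR (4.0.16), glmQLFit with the legacy computation and glmQLFTest, after TMM normalization, with 1 mean for each genotype and day. The fit held 38 libraries, and 2 HNKO libraries of day 21, which the labels mark as having failed quality control, were left out. Genes were filtered with filterByExpr (minimum count 10, scaled by library size, minimum total count 15, minimum proportion 0.7), which removed 35190 of 55487 genes and kept 99.937% of the counts. Genes were called at an adjusted p-value (Benjamini-Hochberg over all tested genes) under 0.05, and standard errors (SE) are those that the test statistic implies. Nampt and the share of mitochondrial counts were also tested by an exact permutation test over the 252 splits of 5 against 5 libraries, two-sided. Within each group, the 20 pairs of libraries differed beyond sampling noise (lowest chi-square per gene 22.8), so that each library counts as 1 replicate.

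Gene symbols and positions are those of the GENCODE annotation of GRCm38 (55394 genes matched), and promoters are those of RefSeq (182 of 242 genes named by the rule had one). Shared sequence is the percentage of 51-base stretches of a gene's transcripts that occur in transcripts of other genes. Named genes were Nampt, the called genes without overlap with the smallest p-values, the largest changes, and the highest levels, up to 5 called members of each of 60 gene lists by p-value, up to 3 others where fewer than 2 were called, and the leading genes of the contrast with later days. Members and lists were chosen with earlier results of these data known. DESeq2 (1.42.0), other normalizations, filters, sample sets, dispersion settings, a covariate for the label series, and leaving out single libraries were tried as alternatives, and leaving out HNKO 23 and WT 26 together was added after seeing the data. The procedure was tested on simulated data. Some genes are not reported here.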

Additional observations from a re-analysis of the deposited data

Results flagged for a closer look

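Of 218 groups of 5 values examined, those of 105 named genes and 4 library measures in either genotype, 13 held 1 library far from the other 4 by Dixon's criterion, which chance meets in about 1 in 20 groups. Among lower and higher genes with small p-values, Atp11a was at 4.12 log2 CPM in WT 5 against 4.38 to 4.47 in the other WT libraries, Fzd5 was at 3.57 in WT 1 against 3.27 to 3.33, Kank1 at 6.6 in WT 5 against 6.73 to 6.76, and Nup62 at 2.69 in WT 26 against 2.98 to 3.09. For Atp11a this distance was small beside the gap between the HNKO and WT libraries. WT 24 was the highest WT library for both helicase subunits, at 2.41 log2 CPM for Mcm5 against 1.3 to 1.61 and at 3.30 for Mcm6 against 2.89 to 2.97. Col5a2 was at 2.99 log2 CPM in WT 5 against 3.82 to 3.98 in the other WT libraries, and 0 collagen chains were called without that library.

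Among HNKO livers, HNKO 22 stood apart for Acads, at 6.90 log2 CPM against 6.49 to 6.56, and for Slc10a2, at 3.82 against 4.81 to 5.14. Lcn2 was at 8.30 log2 CPM in HNKO 3 against 6.53 to 7.0 in the other HNKO libraries. Genes of other cells or tissues stood apart in single libraries, with Ms4a1 at 3.74 and Ighm at 7.29 log2 CPM in WT 26, against at most 0.81 and 3.48 in the other WT libraries, and Cpa1 at 1.72 log2 CPM in HNKO 23, against at most -2.91 in the other HNKO libraries. Where these transcripts came from was not tested.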

How the results depend on the processing

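No alternative turned the direction of any of the 103 called genes that the text takes from the rule for named genes. The count of 945 genes stayed within 1.5 times under RLE size factors (967), at least 10 counts in every library (788), a covariate for the 2 label series (1171), the newer computation of edgeR (962), its robust setting (942), and no filter beyond 1 count (630, of them 186 lower). DESeq2 called 1428 (614 lower). A fit of all 40 libraries called 331 (210 higher, 121 lower), one of the 10 libraries of day 3 alone 420 (267 higher, 153 lower), and one without HNKO 23 and WT 26 242 (156 higher, 86 lower). Leaving out single libraries gave 322 to 1668 genes, 213 to 1006 higher and 91 to 662 lower, where the fewest in all were called without HNKO 23, the fewest higher without HNKO 2, the fewest lower without HNKO 3, and the most without HNKO 22. For the day 3 effect against later days DESeq2 called 5 genes, Sntg2, B3galt1, Cfd, and Ighg1 below and Nup62 above the later mean (Cfd named after its values were seen), and every edgeR fit called 0. Of the 105 genes so named, 56 lost their call without HNKO 23 and WT 26, 36 in the day 3 libraries alone, 26 with all 40 libraries, 37 without HNKO 23, 36 without HNKO 2, 28 without WT 5, and 26 without HNKO 3 or WT 25. Ighm, which was not called, turned from lower to 0.23 without HNKO 23 and WT 26, and ranged from -2.31 to 0.20 when single libraries were left out, with the positive value without WT 26. The causes of these changes were not tested. With few counts in WT, as for Timp1, Cldn4, and Lrrc9, the size of a change depends on the prior count. No paired analysis was possible because the library numbers are unique to each library and pair no HNKO with a WT liver.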

Other observations

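Some gene groups that the report does not describe also held calls at day 3. Of 35 ADAM and ADAMTS proteases, which cut matrix proteins and cell surface receptors, 5 were higher and 0 lower (14.3%, beside 2.95% of all tested genes higher). Their median log2 fold change was 0.41. Adamtsl2, a secreted binding partner of fibrillin, was at 5.13, 3.71, 4.37, 3.60, and 5.29 log2 CPM in HNKO 2, 3, 4, 22, and 23 and at 2.56 to 3.48 in WT. The groups did not overlap, and Adamtsl2 rose by 1.51 (SE 0.28, adjusted p = 0.00287, edgeR). Adamts4, a protease of proteoglycans, rose by 2.01 (SE 0.47). The number called in this list was 2 without HNKO 2, HNKO 23, WT 5, WT 24, or WT 25, 9 without HNKO 22, and 1 when HNKO 23 and WT 26 were both left out.

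Of 31 genes of the Notch and Hippo-YAP pathways 3 were higher and 0 lower (9.68%, beside 2.95% of all tested genes higher, median 0.09). Without HNKO 4 or HNKO 22, 5 were called, and without HNKO 2, HNKO 3, HNKO 23, WT 5, WT 24, WT 25, or WT 26, 1. Jag1, a ligand of Notch receptors, was at 3.52 to 4.18 log2 CPM in HNKO and 2.97 to 3.43 in WT and rose by 0.65 (SE 0.14, adjusted p = 0.00813, edgeR). Its call was kept in all 10 fits that left out 1 library. Tead1, a DNA-binding partner of YAP, rose by 0.50 (SE 0.14) and Ankrd1, a target of YAP, by 1.75 (SE 0.52), and both were called in 3 of those 10 fits. Of 19 immediate early genes 2 were higher (10.5%, median -0.01). Fosl2, a subunit of AP-1, was at 4.29, 4.19, 4.05, 4.33, and 4.39 log2 CPM in HNKO 2, 3, 4, 22, and 23 and at 3.41 to 3.64 in WT, and rose by 0.75 (SE 0.19, adjusted p = 0.0194, edgeR). No HNKO library came near the WT range for Fosl2, whereas Klf6, a zinc finger factor (0.83, SE 0.21), was within it in HNKO 22. No gene of the Notch and Hippo-YAP list or of the immediate early list was called when HNKO 23 and WT 26 were both left out.

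Of 18 aldehyde dehydrogenases 3 were lower and 1 higher (22.2%, beside 4.66% of all tested genes called, median -0.32). The higher gene was Aldh1a3, which makes retinoic acid (1.32, SE 0.29, adjusted p = 0.00864, edgeR), and the lower ones included Aldh3a2, which oxidises fatty aldehydes (-0.77, SE 0.17, adjusted p = 0.0100, edgeR). Of 45 SLC25 carriers of the inner mitochondrial membrane 4 were lower and 1 higher (11.1%, beside the same 4.66%, median -0.16). Slc25a11, the carrier of 2-oxoglutarate and malate that takes part in the transfer of NADH equivalents, was lower by -0.42 (SE 0.11, adjusted p = 0.0233, edgeR) and was called in 5 of 10 fits that left out 1 library. Aldehyde dehydrogenases called lower numbered 1 without HNKO 2, HNKO 3, HNKO 23, or WT 25, 6 without HNKO 22, and 7 without HNKO 4, and carriers 1 without HNKO 2, HNKO 3, HNKO 23, or WT 25, 2 without WT 5 or WT 24, and 8 without HNKO 22. When HNKO 23 and WT 26 were both left out, 1 gene of either list was called lower.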
